A study of Homo sapiens with 12 samples.

Results

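RNA of SK-N-SH cells treated with chaetocin at 50 nM was compared with RNA of the same line given the solvent DMSO, with 3 libraries in each group. These 6 libraries are 6 of the 12 in the series and were chosen by their treatment label. The other libraries carry a silencing RNA against SUV39H1 or a control one, and they entered the fit as 2 further groups. SK-N-SH is an established human neuroblastoma line, so all libraries come from 1 line, and the design text calls the replicates biological triplicates. Nothing in the labels names separate culture days, so the p-values measure the spread between these libraries, and the duration of the treatment is not given in the sources used here. All 18739 genes of the tables were used, of which 15051 passed the filter on low counts.

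Chaetocin is a fungal metabolite with sulfur bridges that is used as an inhibitor of SUV39H1, the enzyme that trimethylates lysine 9 of histone H3, and it also acts on cellular thiols and thioredoxin reductase. Neuroblastoma arises from the sympathoadrenal branch of the neural crest. Its cells can hold a noradrenergic state, kept by factors such as HAND2 and GATA3, or a mesenchymal state marked by factors such as PRRX1 and by matrix genes, and SK-N-SH cultures are known to contain cells of both kinds. In bulk RNA fewer cells of a type and less RNA per cell cannot be told apart.

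Total counts were 18235528, 18177124 and 18004632 in the chaetocin libraries and 19644426, 19976995 and 19944011 in the DMSO libraries, and the median number of genes with a count above 0 was 17748 with chaetocin and 16255 with DMSO. The first principal component of log2 CPM over the 12 libraries held 80.9% of the variance, with the 3 chaetocin libraries far from the other 9. Levels are TMM-normalized CPM, the counts scaled to a common library size, and changes are log2 of chaetocin over DMSO ± standard error from edgeR's quasi-likelihood test, n = 3 per group. A gene is said to have risen or fallen where its Benjamini-Hochberg adjusted p was under 0.05. By that rule 6180 genes, or 41.1% of those tested, rose and 5785 (38.4%) fell. A change of at least 2-fold was seen upward in 3279 (21.8%) and downward in 2408 (16.0%), with a median of 0.04 over all genes tested. Scaling libraries by their totals alone raised that median by 0.15. Gene positions are from RefSeq, GRCh38.p14. Because the filter asks for counts in any 3 libraries, 1104 genes were tested only through their level with chaetocin. Of the 13947 that pass without the chaetocin libraries, 5170 (37.1%) rose and 5784 (41.5%) fell, 2286 (16.4%) and 2407 (17.3%) of them at least 2-fold. Counts by list below are to be read beside these shares, and several lists lie near them. Among the genes named below and called, the largest adjusted p was 0.0033, and the 3 chaetocin libraries overlapped the 3 DMSO libraries in 0 of them. Most of these genes were named by a rule that asks for large changes and no overlap. The lack of overlap in named genes therefore follows largely from that choice.

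Levels of the target's mRNA and of the line's own markers are given first. They do not check the label, since chaetocin is used against the SUV39H1 enzyme and not its mRNA. SUV39H1 had 7.69, 7.83 and 7.44 CPM in the chaetocin libraries, against 20.3, 19.6 and 24.6 CPM in the DMSO libraries, a change of −1.49 ± 0.11. Its paralog SUV39H2 overlapped between the groups, with 7.33, 8.35 and 6.97 CPM with chaetocin and 8.65, 7.18 and 6.28 CPM with DMSO. The mitotic kinase gene AURKA had 24.2, 20.7 and 20.3 CPM with chaetocin and 35.9, 33.4 and 33.2 CPM with DMSO, and ZC3H12A, which encodes an endoribonuclease that cleaves inflammatory mRNAs, had 73.6, 85.3 and 75.4 CPM with chaetocin and 4.38, 4.72 and 6.07 CPM with DMSO. In the length-scaled unit TPM the noradrenergic factor HAND2 stood at 28.6 ± 1.64 TPM with chaetocin and 286 ± 17.7 TPM with DMSO, and the mesenchymal intermediate filament gene VIM at 4305 ± 378 TPM with chaetocin and 9298 ± 72.3 TPM with DMSO. The tyrosine hydroxylase gene TH, the first enzyme of catecholamine synthesis and a defining marker, had 2 counts over the 3 chaetocin libraries and 0 over the 3 DMSO libraries, so this defining marker was at or near 0 in both groups.

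The promoter letters of 6 genes that rose are shown because their families lead the results below. They cover an interferon-induced chemokine, a sensor of foreign RNA, an antigen transporter, 2 chemokines of the neutrophil-attracting group and an enzyme of glutathione synthesis. The windows are from RefSeq, GRCh38.p14, lie before the annotated start and are written 5′ to 3′ along the gene. Capitals mark matches on either strand, in each window only to the motifs named for it here. In the first 4 windows these are the core of the interferon-stimulated response element (GAAANNGAA) and the NF-kB motif. In CXCL8 they are the AP-1 motif (TGANTCA) and in GCLM the core of the antioxidant response element (TGACNNNGC).
CXCL10 (chr4:76023578-76023737, minus strand): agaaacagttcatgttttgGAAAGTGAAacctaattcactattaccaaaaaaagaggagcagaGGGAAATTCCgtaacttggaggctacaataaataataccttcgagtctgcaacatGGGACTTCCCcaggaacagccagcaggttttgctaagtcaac
IFIH1 (chr2:162318685-162318864, minus strand): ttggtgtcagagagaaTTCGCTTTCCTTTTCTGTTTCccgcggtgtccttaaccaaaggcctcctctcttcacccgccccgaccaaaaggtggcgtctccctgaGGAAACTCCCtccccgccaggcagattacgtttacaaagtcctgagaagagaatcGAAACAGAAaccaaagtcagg
TAP1 (chr6:32853735-32853854, minus strand): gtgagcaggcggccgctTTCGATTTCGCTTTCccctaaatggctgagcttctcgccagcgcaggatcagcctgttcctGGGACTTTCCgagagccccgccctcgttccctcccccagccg
CXCL2 (chr4:74099246-74099435, minus strand): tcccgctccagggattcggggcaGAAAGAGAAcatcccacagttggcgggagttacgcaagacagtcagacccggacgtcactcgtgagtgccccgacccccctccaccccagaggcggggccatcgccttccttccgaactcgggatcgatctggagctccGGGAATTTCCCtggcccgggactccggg
CXCL8 (chr4:73740399-73740508, plus strand): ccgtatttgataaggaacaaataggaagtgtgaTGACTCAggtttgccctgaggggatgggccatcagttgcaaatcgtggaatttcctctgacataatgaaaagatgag
GCLM (chr1:93909431-93909510, minus strand): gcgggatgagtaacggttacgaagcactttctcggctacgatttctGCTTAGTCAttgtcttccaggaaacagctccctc
The CXCL10 window holds 1 interferon-type match and 2 NF-kB matches. An antioxidant-type match near its end, on the other strand, is not marked. The IFIH1 window holds 4 interferon-type matches, of which 3 overlap in a single run, and 1 NF-kB match, and the TAP1 window holds 2 overlapping interferon-type matches and 1 NF-kB match. The CXCL2 window holds 1 interferon-type match and a pair of NF-kB matches that overlap on the 2 strands. The marked letters are an AP-1 match in CXCL8 and an antioxidant-type match in GCLM. The NF-kB motif used here begins with 3 G. A near match in the CXCL8 window that lacks the first of these is therefore not marked.

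Pathway genes as a whole were split between the directions. Of 596 tested members of 27 lists, 224 rose and 263 fell, with a median of −0.08. At least 2-fold, 117 (19.6%) rose and 120 (20.1%) fell, near the 21.8% and 16.0% of all genes. With libraries scaled by their totals alone 256 rose and 240 fell. Most genes of nucleic acid sensing, antigen presentation and thiol defence rose, whereas most genes of axon guidance, synaptic release, complex I and serine synthesis fell.

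Cells detect viral and stray nucleic acids with sensor proteins that signal to interferon genes. Of 19 tested sensor and adaptor genes, 18 rose and 1 fell, with a median of 2.87 against 0.04 for all genes. Without the 4 that were tested only through chaetocin, 14 of 15 rose. IFIH1, the MDA5 sensor of long RNA duplexes (chromosome 2, 162267074 to 162318684), had 119, 123 and 98.8 CPM in the chaetocin libraries, against 1.95, 1.05 and 1.11 CPM in the DMSO libraries, a change of 6.37 ± 0.19. RIGI, listed under its older symbol DDX58 and a sensor of RNA ends, had 169, 172 and 135 CPM with chaetocin and 2.8, 4.14 and 3.53 CPM with DMSO (5.50 ± 0.19). The DNA sensor AIM2 changed by 5.47 ± 0.20, from a DMSO mean near 1 CPM (46 against 1.04 CPM). The kinase PKR, encoded by EIF2AK2, which halts translation upon RNA duplexes, stood at 243 ± 10.4 CPM with chaetocin and 29.6 ± 1.57 CPM with DMSO, and the endosomal receptor gene TLR3 at 13.3 ± 2.32 CPM with chaetocin and 1.72 ± 0.327 CPM with DMSO. Each chaetocin library of these genes lay above each DMSO library.

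Interferon genes themselves stayed near the floor. None of the 10 interferon ligands in the tables passed the filter, and their summed level was 0.372 to 1.32 CPM in the chaetocin libraries and 0 to 0.0527 CPM in the DMSO libraries. IFNB1 had 17 counts over the chaetocin libraries and 0 over the DMSO libraries, and its level varied between 0.0532 and 0.611 CPM among the chaetocin libraries.

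JAK-STAT genes carry the signal of cytokine receptors to the nucleus. Of 22 tested, 14 rose and 4 fell (median 0.71). USP18, a brake on the interferon receptor, had 217, 205 and 197 CPM with chaetocin and 6.07, 6.61 and 7.7 CPM with DMSO (4.92 ± 0.10). STAT5A changed by 4.26 ± 0.15 (84.1 against 4.37 CPM). STAT4 and STAT6 rose from under 1 CPM in DMSO (8.35 against 0.755 CPM and 6.82 against 0.755 CPM). STAT3, which also serves the IL6 receptors, was not called and stood at 126 ± 2.98 CPM with chaetocin and 122 ± 6.33 CPM with DMSO (adjusted p = 0.568).

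MHC class I presents peptides of the cell's own proteins to CD8 T cells. Of 20 tested genes of this route, 18 rose and 2 fell (median 1.65), and all of them pass the filter without the chaetocin libraries. The peptide pump subunit TAP1 had 459, 473 and 483 CPM in the chaetocin libraries, against 43.1, 41.3 and 47 CPM in the DMSO libraries. Its partner TAP2 had 339, 331 and 324 CPM in the chaetocin libraries, against 25.3, 25.3 and 24.4 CPM in the DMSO libraries. The immunoproteasome subunit genes PSMB9 and PSMB10 changed by 3.87 ± 0.12 and 2.84 ± 0.11, the trimming peptidase ERAP2 by 3.09 ± 0.12 and the class I transactivator NLRC5 by 2.45 ± 0.11. Among the heavy chain genes HLA-B changed by 1.84 ± 0.10 and HLA-C by 1.07 ± 0.09, and the light chain B2M by 0.54 ± 0.09. These heavy chain genes are near copies of each other, so their split of reads is uncertain. Of 6 tested class II genes 5 rose, 2 of the 6 being tested only through chaetocin, led by the lysosomal protease CTSS with 617, 602 and 527 CPM with chaetocin and 7.18, 6.03 and 7.07 CPM with DMSO, while the peptide loader HLA-DMA stood at 2.92 ± 0.561 CPM with chaetocin and 3.35 ± 0.715 CPM with DMSO (adjusted p = 0.367).

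Thiol defence genes supply and recycle reduced thioredoxin and glutathione. Of 26 tested, 15 rose and 9 fell (median 0.48), 11 and 2 at least 2-fold. The cystine importer SLC7A11 (chromosome 4, 138164097 to 138242349) had 101, 106 and 100 CPM in the chaetocin libraries, against 4.01, 3.83 and 4.91 CPM in the DMSO libraries, a change of 4.59 ± 0.21, and its partner chain SLC3A2 changed by 2.38 ± 0.07. Thioredoxin reductase TXNRD1 had 1123, 1090 and 922 CPM with chaetocin and 126, 114 and 102 CPM with DMSO. Thioredoxin itself, TXN, had 976, 962 and 1031 CPM with chaetocin and 126, 130 and 146 CPM with DMSO. In both genes the lowest chaetocin library was several times the highest DMSO library. The mitochondrial peroxiredoxin gene PRDX5 stood at 295 ± 17.9 CPM with chaetocin and 293 ± 29.7 CPM with DMSO (adjusted p = 0.927). Among 15 genes that supply NADPH, 6 rose and 7 fell. The genes ME1 (2.03 ± 0.07) and TKT (1.30 ± 0.07) were higher, and the mitochondrial IDH2 (−1.54 ± 0.08) was lower.

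Other metabolic lists differed in their balance. Of 38 nuclear genes of complex I, the first enzyme of the respiratory chain, 33 fell and 2 rose (median −0.62), and 4 of the falls reached 2-fold. NDUFA12 had 14.1, 12.8 and 14.4 CPM with chaetocin and 42, 39.9 and 41.5 CPM with DMSO. NDUFS7 had 18.3, 21.4 and 25 CPM with chaetocin and 46.6, 47.1 and 50.3 CPM with DMSO, again without overlap. NDUFB5 was not called (61 ± 1.39 CPM with chaetocin and 66.9 ± 5.17 CPM with DMSO). Glycolytic genes rose and fell in equal number (9 and 9 of 21). GAPDH, often used as a constant control, had 16555, 17385 and 18078 CPM in the chaetocin libraries, against 8144, 8542 and 8734 CPM in the DMSO libraries (1.03 ± 0.09). The aldolase gene ALDOA changed by 1.58 ± 0.09 while its neuronal form ALDOC changed by −2.18 ± 0.20. Of 17 serine, glycine and folate genes 11 fell and 3 rose. The first enzymes of serine synthesis were lower, PHGDH at 12.2 ± 1.33 CPM with chaetocin and 64.9 ± 2.49 CPM with DMSO, and PSAT1 at 11.9 ± 0.939 CPM with chaetocin and 43.6 ± 2.91 CPM with DMSO. Amino acid transporters rose in 10 and fell in 15 of 31 cases, with SLC38A4 at −2.92 ± 0.11.

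Protein turnover lists held changes in both directions. Proteasome core and cap genes rose in 16 and fell in 10 of 34 cases with a median of 0.03, and 1 in each direction reached 2-fold, PSMA3 (1.65 ± 0.07) and PSMB6 (−1.34 ± 0.10). Transfer RNA synthetases rose in 8 and fell in 8 of 21 cases. The tryptophan enzyme WARS1, known to be induced by interferon gamma, changed by 1.05 ± 0.06 and the tyrosine enzyme YARS1 by −1.47 ± 0.07. Of 25 autophagy and lysosome genes 11 rose and 7 fell. The cargo receptor SQSTM1, which also frees NRF2 from its repressor KEAP1, had 5770, 6071 and 6067 CPM in the chaetocin libraries, against 620, 686 and 715 CPM in the DMSO libraries (3.15 ± 0.09). The receptor OPTN changed by 2.36 ± 0.09, and the cathepsin gene CTSB was not called (700 ± 25.4 CPM with chaetocin and 673 ± 41.3 CPM with DMSO).

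Developmental signalling lists were mixed. Hedgehog genes fell in 6 and rose in 2 of 11 cases, led by the co-receptor GAS1 with 4.07, 5.39 and 7.18 CPM with chaetocin and 182, 186 and 184 CPM with DMSO (−5.06 ± 0.12). The transducer SMO changed by −1.40 ± 0.08 and the target and receptor PTCH1 was not called (13.8 ± 1.1 CPM with chaetocin and 14.5 ± 1.62 CPM with DMSO). WNT response genes fell in 9 and rose in 6 of 20 cases (median 0.01), with the feedback gene AXIN2 at 6.95 ± 1.17 CPM with chaetocin and 30.3 ± 1.56 CPM with DMSO, and the nuclear effector LEF1 at 2.13 ± 0.141 CPM with chaetocin and 11.9 ± 1.07 CPM with DMSO. TGF-beta and BMP response genes fell in 11 and rose in 5 of 22 cases. The induced matrix gene TGFBI had 1133, 1183 and 1298 CPM with chaetocin and 5841, 6543 and 6407 CPM with DMSO, while ID3 was higher (1.07 ± 0.09) and ID2 lower (−1.72 ± 0.07), both being targets of BMP signals. Notch genes were split (8 higher and 9 lower of 19, median 0.04), with NOTCH3 at −2.77 ± 0.11 and the effector HES4 at 3.92 ± 0.24. YAP and TEAD targets fell in 9 and rose in 5 of 18 cases: CCN2 stood at 38.3 ± 3.58 CPM with chaetocin and 177 ± 3.79 CPM with DMSO, whereas the clotting initiator F3 stood at 21.9 ± 0.925 CPM with chaetocin and 2.91 ± 0.397 CPM with DMSO. All 20 feedback genes of the ERK pathway were called, 12 lower and 8 higher, with SPRY2 at −2.02 ± 0.06 and DUSP5 at 1.85 ± 0.12. Calls were also frequent over all genes, 41.1% higher and 38.4% lower. Of the 20, only 2 rose and 3 fell at least 2-fold, shares under the 21.8% and 16.0% of all genes.

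Genes of neuronal wiring and synaptic release fell in most cases, and channel genes were called in both directions. Axon guidance receptors fell in 15 and rose in 4 of 23 cases (median −0.99), and 11 of the falls reached 2-fold, a size seen in 16.0% of all genes. The netrin receptor UNC5A had 0.458, 0.518 and 0.638 CPM in the chaetocin libraries, against 43.2, 31.5 and 33.7 CPM in the DMSO libraries (−6.05 ± 0.20), and its relatives UNC5B and UNC5C changed by −2.98 ± 0.11 and −2.89 ± 0.10. The semaphorin receptor PLXNA4 changed by −3.78 ± 0.17, while PLXNB2 was not called (560 ± 26.8 CPM with chaetocin and 584 ± 31.5 CPM with DMSO). Synaptic vesicle genes fell in 19 and rose in 6 of 26 cases (median −1.18). The vesicle protein SV2A had 12.2, 12.2 and 15.5 CPM with chaetocin and 156, 153 and 162 CPM with DMSO, the calcium sensors SYT4 and SYT7 changed by −4.06 ± 0.24 and −4.05 ± 0.20, and VAMP1 moved the other way (2.99 ± 0.09). Potassium channel genes rose in 9 and fell in 11 of 25 cases, but of the 20 that pass without the chaetocin libraries 4 rose and 11 fell. KCNH2, of the ERG current that repolarizes the membrane, changed by −4.45 ± 0.11. Sodium and calcium channel genes were split, 9 higher and 10 lower of 27, with CACNA2D2 at −4.29 ± 0.16 and CACNA1A at 2.46 ± 0.13.

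Chromatin and cell cycle lists held changes in both directions. Polycomb genes rose in 7 and fell in 11 of 28 cases, or in 10 and 9 with libraries scaled by their totals alone, with the chromobox gene CBX2 at 12.9 ± 0.834 CPM with chaetocin and 52.4 ± 5.43 CPM with DMSO, and PHC3 at 41.1 ± 1.45 CPM with chaetocin and 13 ± 0.188 CPM with DMSO. Among 22 heterochromatin and H3K9 genes 10 rose and 5 fell. Next to SUV39H1, the SETDB1 partner ATF7IP changed by 1.32 ± 0.12 and the demethylase PHF2 by −1.12 ± 0.08, and CBX3 (HP1 gamma) was not called (113 ± 11.9 CPM with chaetocin and 116 ± 9.94 CPM with DMSO). G1 genes fell in 11 and rose in 5 of 20 cases (median −0.52), 6 of them at least 2-fold lower. The inhibitor CDKN2C (−2.26 ± 0.10) and the kinase CDK2 (−2.12 ± 0.10) were both lower, and CDK6 was not called (51.4 ± 1.57 CPM with chaetocin and 57.8 ± 3.73 CPM with DMSO). Recombination and Fanconi genes fell in 12 and rose in 7 of 26 cases, with the DNA repair gene BRCA2 at 1.73 ± 0.25.

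**Figure D1:**
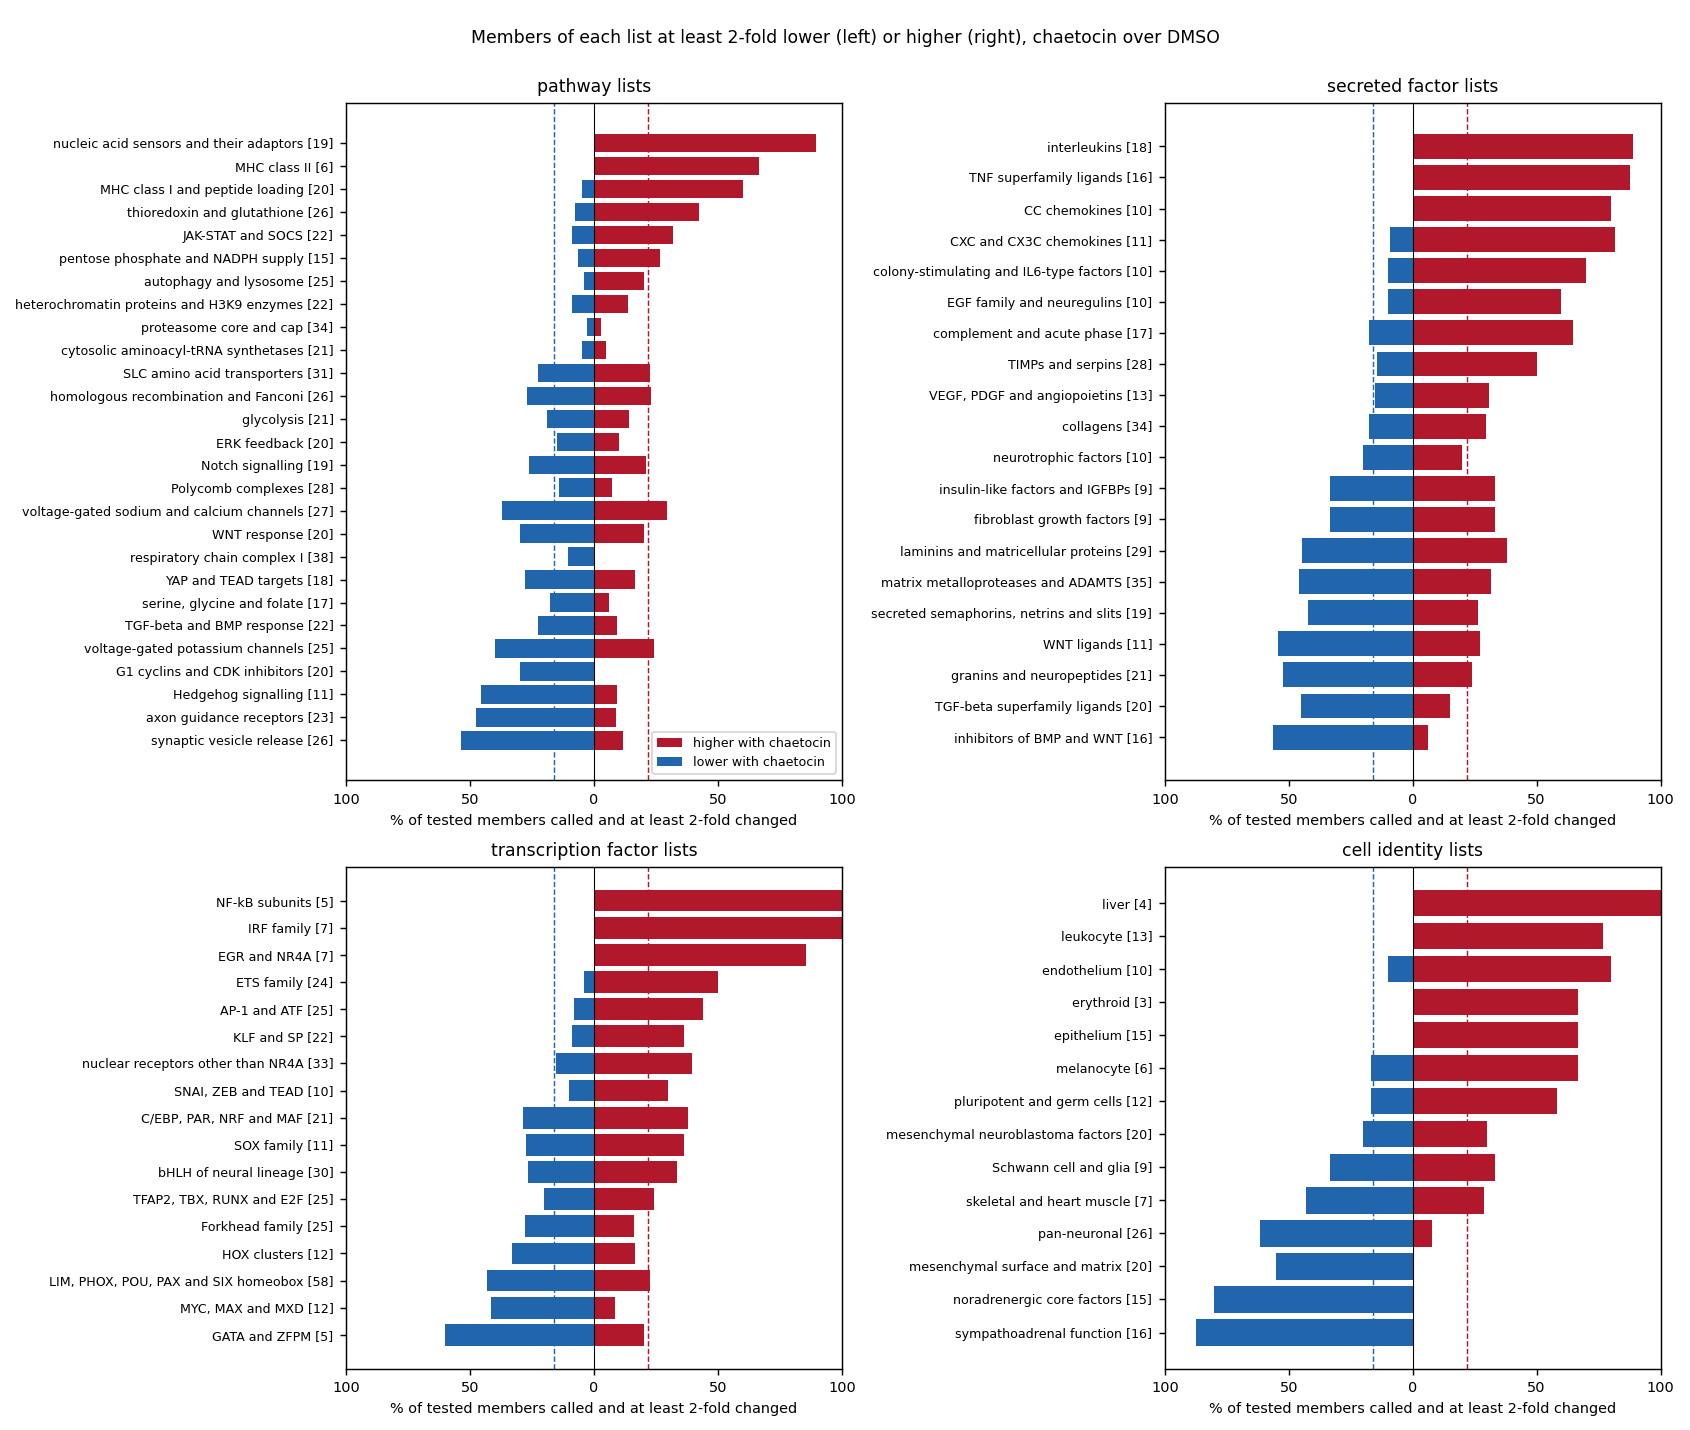
Share of the tested members of each gene list that were called and at least 2-fold higher (right, red) or lower (left, blue) with chaetocin relative to DMSO, in percent, with the number tested in brackets. Dashed lines give the same shares over all 15051 genes, 21.8% higher and 16.0% lower. Chemokine and cytokine lists extend far to the right, and the noradrenergic, neuronal and mesenchymal surface lists are among those that extend to the left.

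Secreted factors held many large changes in both directions. Of 346 tested members of 21 lists, out of 500 in the tables, 167 rose and 137 fell, 146 and 98 at least 2-fold. The rise rests in part on genes near 0 in DMSO, as 59 members were tested only through their level with chaetocin. Of the other 287, 111 rose and 137 fell, 90 and 98 at least 2-fold. Over all genes that pass this way 37.1% rose and 41.5% fell, 16.4% and 17.3% at least 2-fold. The 111 rises are thus near the share of all genes, and both 2-fold counts lie above it.

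Chemokines draw leukocytes to a site. Of 11 tested CXC and CX3C genes 9 rose and 1 fell, and of 10 CC genes 9 rose and 0 fell. Without those tested only through chaetocin, 6 of 8 CXC and CX3C genes and 5 of 6 CC genes rose. CXCL8, the neutrophil attractant interleukin 8 (chromosome 4, 73740569 to 73743716), had 3422, 3672 and 2794 CPM in the chaetocin libraries, against 0.528, 4.67 and 2.58 CPM in the DMSO libraries, a change of 10.31 ± 0.35. The DMSO libraries of CXCL8 differed among themselves, and all lay far under the chaetocin libraries. CXCL1 had 364, 419 and 379 CPM with chaetocin and 0.264, 1.1 and 0.527 CPM with DMSO. CXCL2 rose by a count ratio of 612, with an exact 95% interval of 387 to 1034. CXCL1, CXCL2 and CXCL3 are near copies, so their separate values are uncertain. The T cell attractant CCL5 had 171, 179 and 172 CPM with chaetocin and 1.48, 1.42 and 1.64 CPM with DMSO. The monocyte attractant CCL2 had 1493, 1480 and 1657 CPM with chaetocin and 99.9, 96.8 and 102 CPM with DMSO. CCL3 was at 0 in DMSO. It was at least 181-fold higher with chaetocin when 3 counts were allowed to the whole DMSO group, and it may share reads with its copy CCL3L1. The membrane-bound CX3CL1 was not called (13 ± 0.618 CPM with chaetocin and 13.7 ± 2.66 CPM with DMSO), nor was the monocyte attractant CCL7 (1.04 ± 0.224 CPM with chaetocin and 1.19 ± 0.312 CPM with DMSO).

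Interleukins and related cytokines signal between immune and tissue cells. Of 18 tested interleukin genes 16 rose and 1 fell, and of the 11 that pass without the chaetocin libraries 10 rose. IL6, a fever and acute phase cytokine, had 80.1, 95.9 and 89.3 CPM in the chaetocin libraries, against 0.0528, 1.26 and 0.527 CPM in the DMSO libraries (7.15 ± 0.32). Its lowest chaetocin library was far above its highest DMSO library. IL23A, a subunit of interleukin 23, stood at 53.4 ± 2.44 CPM with chaetocin and 0.684 ± 0.105 CPM with DMSO. IL34, a ligand of the CSF1 receptor, stood at 61.3 ± 6.05 CPM with chaetocin and 3.18 ± 0.238 CPM with DMSO. The proinflammatory IL32 stood at 619 ± 27.8 CPM with chaetocin and 26.3 ± 2.25 CPM with DMSO. IL33 was not called (0.953 ± 0.154 CPM with chaetocin and 0.702 ± 0.211 CPM with DMSO). Of 16 tested TNF-family ligands 15 rose and 1 fell. Of these, 9 were tested only through chaetocin, and of the other 7, 6 rose. The lymphotoxin gene LTA rose by a count ratio of 210, with an exact 95% interval of 81.9 to 774. Its partner LTB rose by a ratio of 321, with an exact 95% interval of 88.4 to 2654. These intervals cover counting error only. The ligand CD70 changed by 2.18 ± 0.20, and TNFSF13, a B cell factor, by 1.14 ± 0.13. Of 10 colony-stimulating and IL6-type factors 8 rose and 1 fell. CSF2, the granulocyte and macrophage factor GM-CSF, had 106, 113 and 103 CPM with chaetocin and 0.0528, 0.367 and 0.105 CPM with DMSO, a count ratio of 611, with an exact 95% interval of 332 to 1275. The macrophage factor CSF1 had 270, 294 and 309 CPM with chaetocin and 32.5, 31.9 and 31.2 CPM with DMSO. The stem cell factor KITLG changed by 1.67 ± 0.18 and LIF by 3.51 ± 0.10, while CTF1 was lower (−1.08 ± 0.10).

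Complement and acute phase genes encode plasma defence proteins. Of 17 tested 12 rose and 4 fell (median 1.63). The central component C3 rose by a count ratio of 170, with an exact 95% interval of 89.2 to 372. Factor B, encoded by CFB, had 111, 107 and 114 CPM with chaetocin and 19.8, 22.7 and 21 CPM with DMSO. Serum amyloid SAA1 had 62.9, 73.7 and 69 CPM with chaetocin and 0.106, 0.105 and 0 CPM with DMSO, and SAA2, a near copy with which it may share reads, changed by 4.92 ± 0.29. The terminal pore component C7 went against them, with 1.48, 1.5 and 1.91 CPM in the chaetocin libraries, against 80.3, 65.9 and 65.2 CPM in the DMSO libraries (−5.43 ± 0.13). Of 28 protease inhibitors 18 rose and 7 fell, and 12 of 22 rose without those tested only through chaetocin. The antitrypsin gene SERPINA1 had 173, 195 and 191 CPM with chaetocin and 7.7, 8.13 and 9.55 CPM with DMSO (4.46 ± 0.10). The metalloprotease inhibitor TIMP2 had 363, 369 and 410 CPM with chaetocin and 1534, 1526 and 1486 CPM with DMSO, and SERPINE2, an inhibitor of thrombin, was not called (146 ± 5.27 CPM with chaetocin and 154 ± 7.62 CPM with DMSO).

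Growth factors were more divided. EGF-family ligands rose in 6 and fell in 3 of 10 cases, but 4 were tested only through chaetocin and of the other 6, 2 rose and 3 fell. HBEGF stood at 35.6 ± 1.5 CPM with chaetocin and 12.4 ± 1.27 CPM with DMSO and the neuregulins NRG1 and NRG2 changed by −0.77 ± 0.08 and −1.31 ± 0.11. FGF genes rose in 5 and fell in 3 of 9 cases, with FGF5 at 247 ± 6.8 CPM with chaetocin and 120 ± 4.24 CPM with DMSO. The falls include FGF11 and FGF14 (−2.04 ± 0.11 and −2.54 ± 0.20), whose products are intracellular. VEGF and PDGF genes rose in 7 and fell in 3 of 13 cases: VEGFC rose (0.82 ± 0.06), VEGFB fell (−1.30 ± 0.09) and VEGFA was not called (41.9 ± 2.08 CPM with chaetocin and 41.1 ± 2.68 CPM with DMSO). Neurotrophic factors rose in 3 and fell in 5 of 10 cases, MDK by −0.39 ± 0.10 and BDNF by −0.45 ± 0.10. GDNF, whose signal runs through RET, stood at 5.35 ± 0.643 CPM with chaetocin and 1.42 ± 0.143 CPM with DMSO. In the TGF-beta superfamily 10 of 20 ligands fell and 6 rose, with GDF11 at 11.5 ± 0.46 CPM with chaetocin and 63.7 ± 2.88 CPM with DMSO, and INHBC up by a count ratio of 25.4, with an exact 95% interval of 16.9 to 39.9. WNT ligands fell in 6 and rose in 3 of 11 cases, WNT7B at 4.79 ± 0.21 and WNT5B at −1.61 ± 0.12, and WNT5A, which was not called, stood at 58.4 ± 1.65 CPM with chaetocin and 63 ± 1.4 CPM with DMSO.

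Secreted inhibitors of BMP and WNT signals fell in most cases. Of 16 tested, 12 fell and 1 rose (median −1.54). The WNT decoy SFRP1 had 30.6, 31.9 and 34.9 CPM in the chaetocin libraries, against 314, 312 and 295 CPM in the DMSO libraries. The WNT receptor blocker DKK1 had 24.2, 23 and 26.3 CPM with chaetocin and 182, 175 and 174 CPM with DMSO. The activin binder FST had 15.1, 15.7 and 17.1 CPM with chaetocin and 131, 125 and 137 CPM with DMSO. Noggin, encoded by NOG, stood at 7.32 ± 0.944 CPM with chaetocin and 26.9 ± 0.224 CPM with DMSO. No library of these 4 genes overlapped the other group. In the IGF system 4 of 9 genes fell and 4 rose, and of the 7 that pass without the chaetocin libraries 4 fell and 2 rose. The binding protein IGFBP5 had 35.9, 38.6 and 42.2 CPM with chaetocin and 731, 675 and 558 CPM with DMSO. IGFBP3 had 7.33, 7.83 and 6.97 CPM with chaetocin and 74.1, 71.1 and 75.2 CPM with DMSO, and IGFBP4 changed by −2.96 ± 0.10. IGFBP6 moved the other way (0.81 ± 0.10), and IGFBP2 changed by −0.48 ± 0.10.

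Genes for products of secretory granules mostly fell. Of 21 granin and neuropeptide genes 13 fell and 5 rose (median −1.05). The granule protein CHGA had 5.35, 5.55 and 4.84 CPM with chaetocin and 217, 165 and 193 CPM with DMSO (−5.19 ± 0.13), and the peptide genes VIP and GAL changed by −2.82 ± 0.14 and −1.71 ± 0.21. Adrenomedullin, encoded by ADM, was higher (1.75 ± 0.10), and VGF was not called (735 ± 118 CPM with chaetocin and 816 ± 44.7 CPM with DMSO). Of 19 secreted guidance cues 10 fell and 6 rose. SLIT3, a ligand of ROBO receptors, had 90.1, 91.5 and 98.4 CPM with chaetocin and 492, 507 and 450 CPM with DMSO. SEMA3F changed by −2.10 ± 0.10, SEMA3A by 1.64 ± 0.15 and SEMA3E rose by a count ratio of 31, with an exact 95% interval of 21.2 to 47.3.

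Matrix genes moved in both directions. Collagen genes fell in 17 and rose in 11 of 34 cases, and of the 29 that pass without the chaetocin libraries 17 fell and 6 rose. The fibril gene COL5A1 had 42.4, 47.6 and 56.9 CPM with chaetocin and 267, 293 and 264 CPM with DMSO. COL17A1, of the epithelial anchoring complex, rose by a count ratio of 115, with an exact 95% interval of 60.3 to 252, and COL10A1 changed by 3.37 ± 0.15. Laminin and matricellular genes fell in 17 and rose in 11 of 29 cases. The laminin chain LAMA3, found in epithelial basement membranes, changed by 3.87 ± 0.11, and LAMA2 by 4.91 ± 0.18. Osteopontin, encoded by SPP1, had 116, 115 and 101 CPM with chaetocin and 4.7, 4.82 and 4.54 CPM with DMSO. Thrombospondin THBS1 had 88.6, 83.7 and 100 CPM with chaetocin and 571, 510 and 469 CPM with DMSO. Of 35 metalloprotease and ADAMTS genes 19 fell and 12 rose, and of the 30 that pass without the chaetocin libraries 19 fell and 7 rose. The aggrecan-cleaving ADAMTS1 had 13.1, 11.5 and 11 CPM with chaetocin and 271, 249 and 238 CPM with DMSO (−4.41 ± 0.09), MMP24 changed by −3.28 ± 0.12, and stromelysin MMP3 and collagenase MMP1 changed by 2.69 ± 0.10 and 1.26 ± 0.10.

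**Figure D2:**
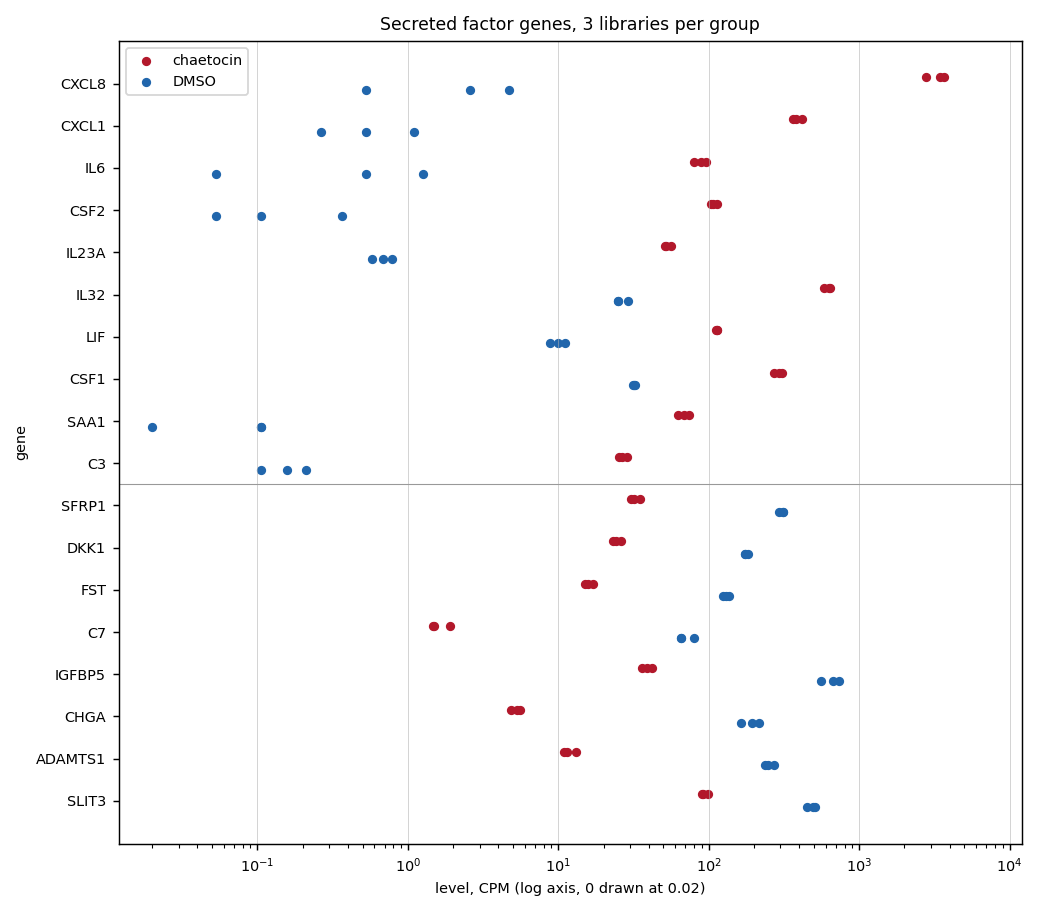
Level in CPM (log axis) of 18 secreted factor genes in each of the 3 chaetocin libraries (red) and 3 DMSO libraries (blue), with values of 0 drawn at 0.02. The upper 10 genes lie to the right in chaetocin and the lower 8 to the left. The groups do not overlap for any of the 18, as the rule for naming genes asks.

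Among transcription factors most members of the IRF, NF-kB, AP-1 and EGR families rose, and lineage families were mixed. Of 332 tested members of 17 lists, out of 489 in the tables, 161 rose and 126 fell, 114 and 77 at least 2-fold (median 0.30). Of the 297 that pass without the chaetocin libraries 128 rose and 126 fell.

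All 7 tested interferon regulatory factors rose (median 2.08). IRF1, which activates interferon and antigen presentation genes (chromosome 5, 132481609 to 132490773), had 623, 613 and 656 CPM in the chaetocin libraries, against 22.1, 22.6 and 26.7 CPM in the DMSO libraries, a change of 4.73 ± 0.09. IRF7, which amplifies interferon production, had 149, 157 and 149 CPM with chaetocin and 14.2, 14.4 and 16 CPM with DMSO. IRF9, the DNA-binding part of the interferon-activated complex, changed by 2.18 ± 0.08. All 5 NF-kB subunit genes rose. RELB, of the alternative pathway, had 267, 281 and 291 CPM with chaetocin and 26.6, 27.8 and 31.2 CPM with DMSO. NFKB1, REL and RELA changed by 2.36 ± 0.07, 2.16 ± 0.18 and 1.40 ± 0.07. Of 25 AP-1 and ATF genes 17 rose and 6 fell. BATF2 rose by a count ratio of 110, with an exact 95% interval of 74.1 to 170, FOSB changed by 3.23 ± 0.15 and FOSL1 by 1.60 ± 0.08, JDP2 was lower (−2.07 ± 0.12), and JUND was not called (189 ± 7.4 CPM with chaetocin and 176 ± 14.5 CPM with DMSO). All 7 EGR and NR4A genes tested rose, 2 of them tested only through chaetocin, with EGR1 at 78.4 ± 3.34 CPM with chaetocin and 19.6 ± 1.25 CPM with DMSO, and NR4A3 at 16.6 ± 0.186 CPM with chaetocin and 6.3 ± 0.488 CPM with DMSO.

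Other families also leaned upward. Of 24 ETS genes 17 rose and 6 fell. ETV7, a gene known to be induced by interferon, had 27.4, 24.4 and 24.6 CPM with chaetocin and 0.633, 0.787 and 0.527 CPM with DMSO. ETS1 had 169, 163 and 152 CPM with chaetocin and 32.5, 31.4 and 28.2 CPM with DMSO. FEV, a factor of serotonergic neurons, fell (−3.86 ± 0.20). KLF and SP genes rose in 14 and fell in 7 of 22 cases, and of the 18 that pass without the chaetocin libraries 10 rose, with KLF10 at 275 ± 12 CPM with chaetocin and 45.3 ± 2.61 CPM with DMSO, and KLF16 at −1.52 ± 0.09. Nuclear receptors rose in 20 and fell in 7 of 33 cases, and of the 28 that pass without the chaetocin libraries 15 rose. The retinoic acid receptor gene RARB had 40.7, 41.4 and 39.3 CPM with chaetocin and 4.7, 4.2 and 4.8 CPM with DMSO, and the vitamin D receptor gene VDR changed by 2.86 ± 0.17. The thyroid hormone receptor gene THRA had 13.6, 14.7 and 15.5 CPM with chaetocin and 109, 113 and 115 CPM with DMSO. NR2F1, a factor of neural crest enhancers, changed by −2.82 ± 0.08. In the C/EBP, PAR and MAF list 11 of 21 rose and 7 fell, with CEBPB at 1.93 ± 0.12, the small MAF protein MAFG, a partner of NRF2, at 1.54 ± 0.06, and the clock output factors DBP and TEF at −1.49 ± 0.12 and −1.72 ± 0.11.

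Lineage factors differed by family. Homeobox genes of the LIM, PHOX, POU and PAX kinds and their relatives fell in 30 and rose in 19 of 58 cases, and of the 46 that pass without the chaetocin libraries 30 fell and 8 rose. SIX3, a factor of forebrain and eye, had 1.88, 2.07 and 1.86 CPM with chaetocin and 73.2, 53.9 and 57.2 CPM with DMSO. DLX5 fell by a count ratio of 41.9, with an exact 95% interval of 25.2 to 75.4. Neural bHLH genes were split, 11 higher and 11 lower of 30 (median 0.11), and of the 26 that pass without the chaetocin libraries 8 rose and 11 fell. HAND1 had 0.866, 1.04 and 0.798 CPM with chaetocin and 56.4, 43.2 and 47 CPM with DMSO, while BHLHE40 and MSC rose (3.58 ± 0.14 and 3.92 ± 0.16). GATA and ZFPM genes fell in 4 and rose in 1 of 5 cases. GATA2, a sympathetic neuron factor, had 21.5, 17.4 and 19.1 CPM with chaetocin and 335, 257 and 252 CPM with DMSO, and GATA3 changed by −1.87 ± 0.10. TFAP2B, of the neural crest, had 1.78, 1.24 and 1.06 CPM with chaetocin and 54.5, 41.1 and 39.7 CPM with DMSO. Every chaetocin library of SIX3, HAND1, GATA2 and TFAP2B lay under every DMSO library.

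The remaining factor lists were mixed. Forkhead genes fell in 15 and rose in 7 of 25 cases, with FOXC2 at −2.04 ± 0.20 and FOXK1 at 1.65 ± 0.07. HOX genes fell in 6 and rose in 2 of 12 cases, HOXC6 at −1.46 ± 0.10. SOX genes rose in 5 and fell in 4 of 11 cases, and of the 9 that pass without the chaetocin libraries 3 rose and 4 fell. SOX4 and SOX11, of early neurons, changed by −2.06 ± 0.09 and −0.87 ± 0.10, and SOX5 by 3.03 ± 0.22. In the MYC network 8 of 12 genes fell and 3 rose. MYC itself fell (−2.70 ± 0.12), with 4.91 ± 0.787 CPM with chaetocin and 31.9 ± 3.53 CPM with DMSO. The repressors MXD3 (−1.70 ± 0.16) and MXD4 (−1.71 ± 0.07) also fell, and MGA rose (1.02 ± 0.20). The SNAI, ZEB and TEAD list had 5 rises and 4 falls in 10 genes. ZEB1 and ZEB2, factors of epithelial-mesenchymal transition, rose (1.26 ± 0.22 and 1.01 ± 0.15), SNAI2 fell (−0.89 ± 0.09), and TEAD1 was not called (117 ± 4.91 CPM with chaetocin and 120 ± 9.64 CPM with DMSO). The TFAP2, TBX, RUNX and E2F list was split (10 higher and 11 lower of 25). TBX4, a limb and lung factor, stood at 37 ± 0.624 CPM with chaetocin and 2.44 ± 0.211 CPM with DMSO, and TBX2 at 74 ± 3.56 CPM with chaetocin and 261 ± 7.49 CPM with DMSO.

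**Figure D3:**
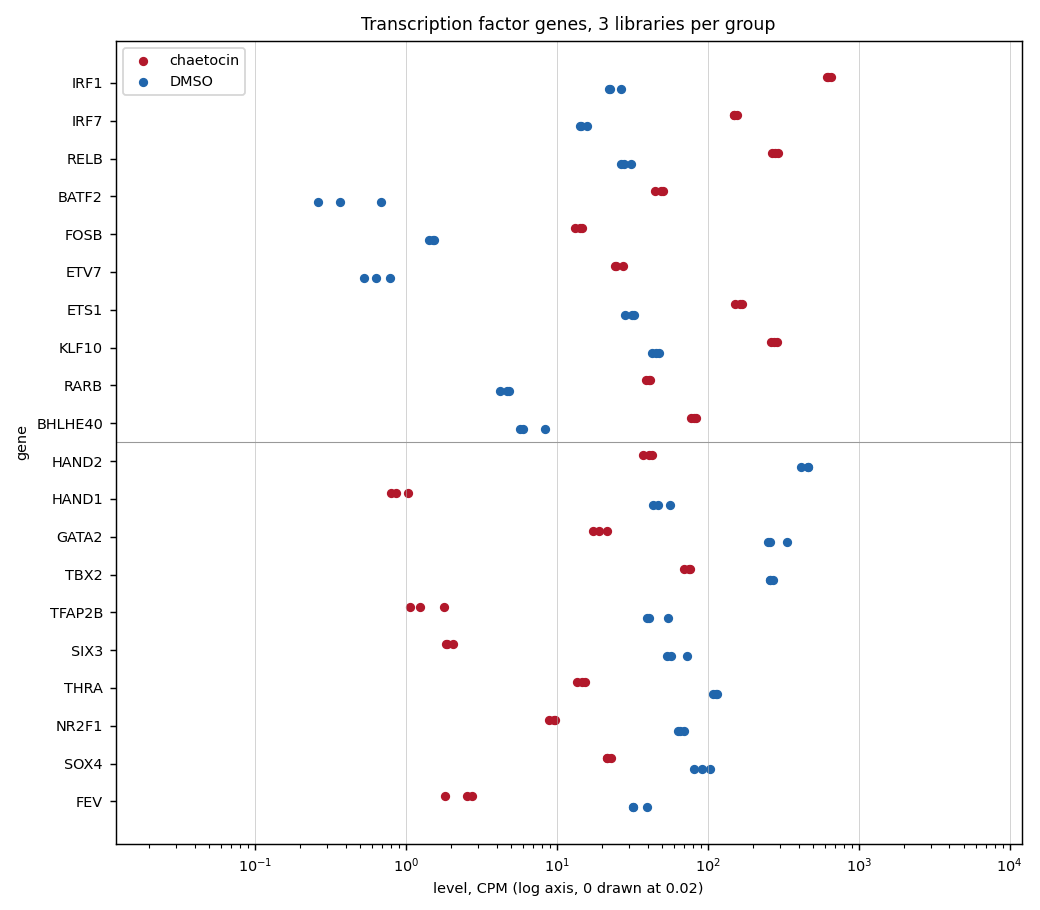
Level in CPM (log axis) of 20 transcription factor genes in each of the 3 chaetocin libraries (red) and 3 DMSO libraries (blue). The upper 10 genes are higher with chaetocin and the lower 10 are lower. The groups do not overlap in any of the 20, as the rule for naming genes asks.

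Cell identity markers were counted for the line's own states and for other tissues. Of 176 tested members of 14 lists 74 rose and 87 fell, 58 and 67 at least 2-fold, with a median of −0.28. Of the 148 that pass without the chaetocin libraries 47 rose and 87 fell.

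Noradrenergic genes fell, both the factors that hold the state and the genes of its function. Of 15 core factors 14 fell and 1 rose (median −3.47), and their summed level was 279 to 284 CPM in the chaetocin libraries and 1675 to 1959 CPM in the DMSO libraries. HAND2 had 40.7, 37.4 and 42.5 CPM with chaetocin and 459, 418 and 459 CPM with DMSO. All 16 tested sympathoadrenal genes fell (median −3.57), and their sum was 292 to 297 CPM with chaetocin and 1179 to 1383 CPM with DMSO. The receptor kinase gene RET had 1.58, 1.5 and 2.29 CPM in the chaetocin libraries, against 85.6, 64 and 62.1 CPM in the DMSO libraries (−5.30 ± 0.16). The ganglionic nicotinic receptor subunit gene CHRNA3 had 1.88, 1.76 and 1.7 CPM with chaetocin and 73.1, 56.9 and 51.2 CPM with DMSO. Its partner CHRNB4 had 0.458, 0.57 and 0.585 CPM with chaetocin and 22.1, 18.9 and 15.6 CPM with DMSO. Pan-neuronal genes fell in 19 and rose in 5 of 26 cases. The migrating-neuron protein DCX fell by a count ratio of 70.2, with an exact 95% interval of 47.7 to 108. The adhesion molecule gene L1CAM had 3.41, 2.7 and 2.92 CPM with chaetocin and 97.9, 75.7 and 67.1 CPM with DMSO, and RBFOX3, the antigen NeuN, was not called (2.92 ± 0.52 CPM with chaetocin and 3.65 ± 0.454 CPM with DMSO).

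Mesenchymal surface genes mostly fell, and mesenchymal factors were mixed. Mesenchymal factors rose in 11 and fell in 7 of 20 cases (median 0.37), with a sum of 2542 to 2661 CPM in chaetocin and 1912 to 2001 CPM in DMSO libraries. The members that rose include IRF1 and FOSL1, which are also counted among the inflammatory families above, and MAFF (1.45 ± 0.10). Without IRF1 and FOSL1, left out after their values were seen, the sum was lower with chaetocin. It was 1520, 1527 and 1575 CPM in the chaetocin libraries and 1836, 1801 and 1752 CPM in the DMSO libraries. That difference is smaller than the fall of PRRX1 alone, the highest member in DMSO, so it does not describe the other members. PRRX1, which can impose the mesenchymal state when expressed in neuroblastoma cells, had 244, 255 and 251 CPM in the chaetocin libraries, against 680, 675 and 664 CPM in the DMSO libraries (−1.43 ± 0.08). Mesenchymal surface and matrix genes fell in 17 and rose in 2 of 20 cases (median −1.38). Their sum was 13150 to 15872 CPM in the chaetocin libraries and 29678 to 30930 CPM in the DMSO libraries. The surface glycoprotein THY1 had 78.2, 74.2 and 93.4 CPM with chaetocin and 939, 1033 and 1048 CPM with DMSO. The growth factor receptor PDGFRB had 14.3, 14.2 and 18.8 CPM with chaetocin and 186, 190 and 163 CPM with DMSO. The matrix protein SPARC had 323, 309 and 356 CPM with chaetocin and 1677, 1787 and 1733 CPM with DMSO. The calcium-binding S100A4 was not called (50.5 ± 3.47 CPM with chaetocin and 52.4 ± 5.45 CPM with DMSO).

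Markers of unrelated cell types rose in many cases from low levels. Endothelial genes rose in 8 and fell in 1 of 10 tested cases, or rose in 5 of 7 without those tested only through chaetocin, and their sum was 189 to 200 CPM with chaetocin and 18.7 to 20.6 CPM with DMSO. ROBO4, an endothelial guidance receptor, had 99, 109 and 108 CPM with chaetocin and 4.01, 3.41 and 3.38 CPM with DMSO. The angiopoietin receptor TEK stood at 12 ± 0.613 CPM with chaetocin and 2.98 ± 0.436 CPM with DMSO. The defining cadherin CDH5 was untested, with 33 counts over the chaetocin libraries and 0 over the DMSO libraries. The selectin SELE rose, with 156 counts over the chaetocin libraries and 0 over the DMSO libraries. Of 23 leukocyte markers, 13 were tested, 12 rose and 1 fell, but 7 were tested only through chaetocin. Their sum of 262 to 290 CPM with chaetocin and 176 to 182 CPM with DMSO was mostly CD68, a lysosomal gene (193 against 161 CPM). The integrin ITGAM rose by a count ratio of 230, with an exact 95% interval of 78.2 to 1116, and LCP1 by 53.1, with an exact 95% interval of 28.6 to 111. The T cell gene CD3E and the B cell gene MS4A1 had 1 count each over the chaetocin libraries and 0 over the DMSO libraries, and GZMB was at 0 in both groups.

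Epithelial genes rose in 12 and fell in 1 of 15 tested cases, or rose in 9 of 12 without those tested only through chaetocin, with a sum of 215 to 229 CPM with chaetocin and 144 to 159 CPM with DMSO. The tight junction gene CLDN1 stood at 18 ± 1.17 CPM with chaetocin and 3.32 ± 0.337 CPM with DMSO. The cadherin CDH1 stood at 2.61 ± 0.283 CPM with chaetocin and 0.491 ± 0.0312 CPM with DMSO. KRT18 was not called (72.6 ± 4.76 CPM with chaetocin and 80 ± 6.47 CPM with DMSO, adjusted p = 0.149). Of 14 liver markers 4 were tested and 4 rose, 2 of them tested only through chaetocin. Their sum was 205 to 230 CPM with chaetocin and 17.6 to 21.2 CPM with DMSO, most of it in chaetocin from SERPINA1, the acute phase gene given above. Without SERPINA1 it was 32.1, 35.1 and 33.2 CPM with chaetocin and 9.86, 9.44 and 11.6 CPM with DMSO. The fibrinogen chain FGA was at least 112-fold higher when 3 counts were allowed to the DMSO group, which had 0, while albumin (ALB) had 0.102, 0.207 and 0.319 CPM with chaetocin and 0 counts with DMSO. Germ cell and pluripotency genes rose in 7 and fell in 3 of 12 tested cases, and 6 were tested only through chaetocin. Of the other 6, 1 rose and 3 fell. The sum of all members was lower with chaetocin, at 159.9, 165.3 and 167.2 CPM, against 356.9, 338.2 and 358.7 CPM in the DMSO libraries. Most of the DMSO sum and of this fall was PRAME alone, at 63.8 CPM with chaetocin and 247 CPM with DMSO. The germ cell RNA-binding gene DAZL was at least 114-fold higher by the same reckoning, and PRAME was lower (−1.95 ± 0.07). Schwann and glial genes rose in 3 and fell in 3 of 9 tested cases. The neurotrophin receptor NGFR had 2.34, 2.02 and 1.7 CPM with chaetocin and 25.2, 21.7 and 21 CPM with DMSO, and SOX10 was untested, with 2 counts over the chaetocin libraries and 0 over the DMSO libraries. Muscle markers were split (3 and 3 of 7), as were erythroid ones (2 and 1 of 3), and melanocyte genes rose in 4 and fell in 1 of 6 cases, 3 of them tested only through chaetocin. Of the other 3 melanocyte genes 1 rose and 1 fell, with KIT at −4.56 ± 0.22. The part of other cells in these rises was not tested.

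**Figure D4:**
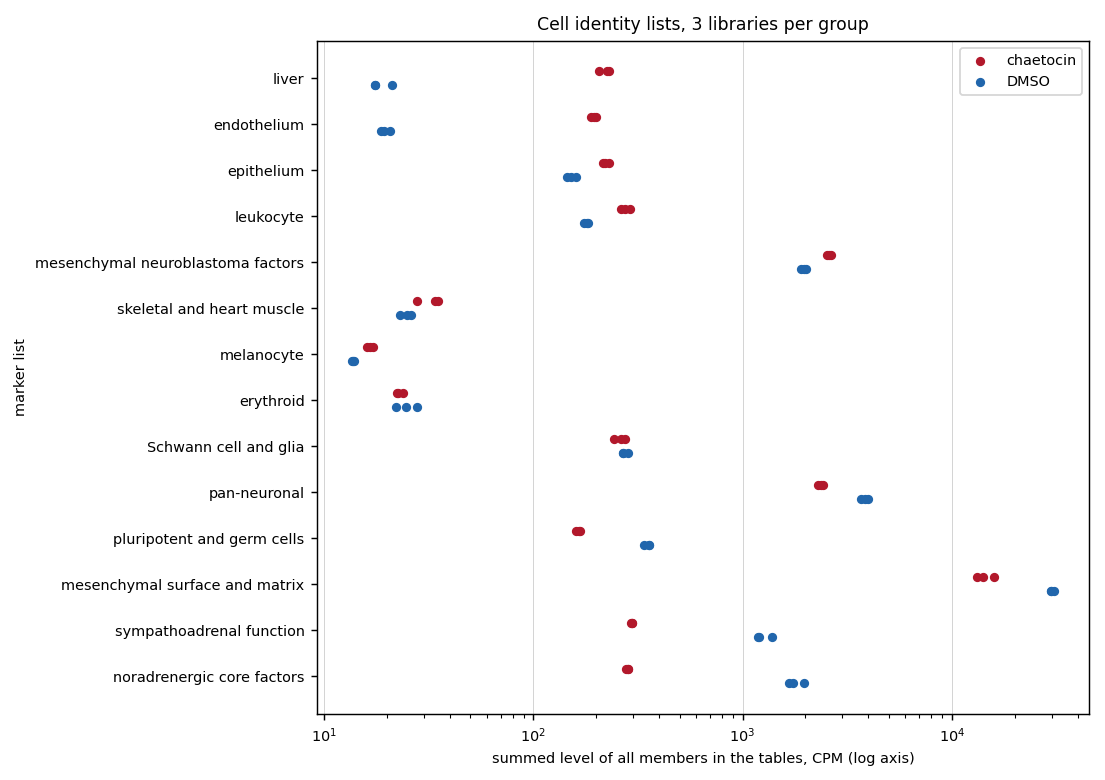
Summed level in CPM (log axis) of the markers of each of 14 cell identity lists in the 3 chaetocin libraries (red) and 3 DMSO libraries (blue). The noradrenergic, sympathoadrenal, pan-neuronal, mesenchymal surface and germ cell sums are lower with chaetocin, without overlap. The endothelial and liver sums are among those that are higher without overlap. Most of the liver sum with chaetocin is SERPINA1, and most of the germ cell sum with DMSO is PRAME.

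Genes that rose at least 4-fold were neighbours among the tested genes in 20 places. Of all tested genes 1529 rose and 835 fell at least 4-fold, and RefSeq placed 14989 of the tested genes. Runs of at least 4 neighbouring tested genes, each at least 4-fold higher, numbered 20 and held 91 genes, and 0 such runs of falls were found. The longest by number of genes holds the chemokines of chromosome 4, from AFP to CXCL2 over 663 kb with 7 genes and a median change of 8.33. AFP, a fetal relative of albumin, had 2.95, 3.94 and 3.46 CPM with chaetocin and 0.211, 0 and 0.0527 CPM with DMSO. The spans differ widely: the run from PTGS2 to RGS13 on chromosome 1 has 6 genes over 5989 kb, and that from DCAF8L1 to NR0B1 on chromosome X has 5 over 2331 kb. On chromosome 11 a run from MRGPRX3 to SAA1 spans 149 kb and another from MMP7 to MMP10 spans 260 kb. Others hold IL1A to IL1RN on chromosome 2 (4 genes), LTA to LST1 on chromosome 6 over 28 kb, TNFSF9 to C3 on chromosome 19, PARP9 to PARP14 on chromosome 3, the phosphatase subunit gene PPP4R4 with 4 serpin genes up to SERPINA1 on chromosome 14 and the immune GTPases from GIMAP8 to GIMAP5 on chromosome 7. Several of these runs are families of similar genes, which can share reads, so the genes of a run are not independent. With a minimum mean of 1 CPM 8 runs were found, and among genes that pass the filter without the chaetocin libraries 5.

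Matches to the 4 motifs were counted in the promoters of the genes that rose and fell. RefSeq gave a promoter of 300 bases for 12164 of the 15051 tested genes, 1151 of those at least 4-fold higher and 610 of those at least 4-fold lower. The genes that rose include some tested only through their level with chaetocin, and no share was counted without them. The interferon-type core stood in 13.8% of promoters of genes that rose, 4.43% of those that fell and 6.53% of all, and the AP-1 letters in 11.5%, 3.77% and 5.01%. The NF-kB motif stood in 13.6%, 15.6% and 12.9%, and the antioxidant-type core in 14.2%, 13% and 14.7%. Promoters of genes that rose had a median GC content of 57.7%, against 67% for those that fell and 64.7% for all, and the 2 motifs that differ are rich in A and T. Within promoters under 60% GC the interferon-type core stood in 18.3% of those that rose, 11.1% of those that fell and 12.4% of all, and the AP-1 letters in 14.2%, 8.02% and 8.89%. From 60% GC up the shares were 8.12%, 2.01% and 3.81% for the interferon-type core and 7.92%, 2.23% and 3.21% for AP-1. Matches were counted by list and not tested. The interferon-type core stood in 9 of 16 promoters of MHC class I genes and 5 of 14 of nucleic acid sensors, and in 1 of 18 of JAK-STAT genes and 0 of 3 of IRF genes. The NF-kB motif stood in 7 of 9 promoters of CXC chemokines, 2 of 7 of CC chemokines, 2 of 13 of TNF-family ligands and 0 of 5 of colony-stimulating factors. Lists with more falls than rises also varied. They had it in 4 of 9 promoters of BMP and WNT inhibitors and 5 of 15 of TGF-beta superfamily ligands. For complex I it was 4 of 33 and for axon guidance receptors 2 of 20. These are matches of letters in a fixed window, and binding was not measured.

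**Figure D5:**
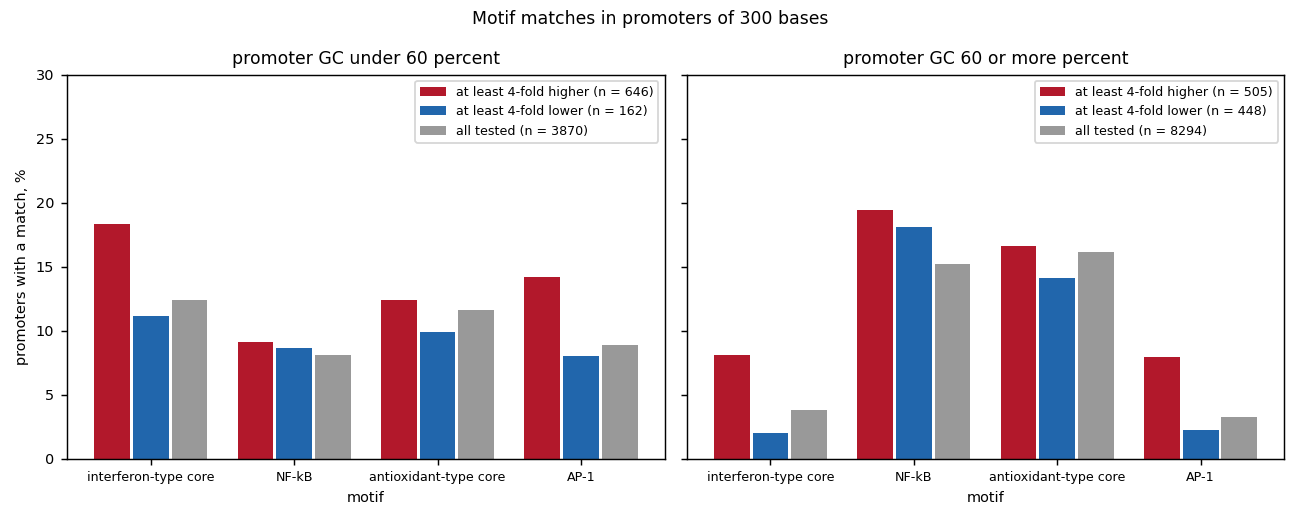
Share of promoters (percent) that hold each of 4 motifs among genes at least 4-fold higher with chaetocin, at least 4-fold lower and all tested, for promoters under 60% GC (left) and of 60% GC or more (right). The interferon-type core and AP-1 bars are taller for genes that rose in both GC classes, 18.3% and 14.2% under 60% GC. The genes that rose include some tested only through their level with chaetocin.

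The knockdown of SUV39H1 in the same series gives a measure of how these changes differ from those of lowering the enzyme's mRNA. SUV39H1 itself changed by −1.49 ± 0.11 with chaetocin and −1.60 ± 0.11 with the silencing RNA, a difference of 0.11 ± 0.15 (adjusted p = 0.542), which did not pass the test. For IRF1 the difference of the chaetocin effect and the knockdown effect was 5.06 ± 0.12 (adjusted p = 4.64e-14), and for CXCL8 10.09 ± 0.41 (adjusted p = 1.08e-11), by edgeR's quasi-likelihood test. For AURKA, one of the genes shown at the start, it was −0.07 ± 0.14 (adjusted p = 0.672). Relative to the control silencing RNA, with 3 libraries in each group, the knockdown effects were −0.33 ± 0.08 on IRF1 and 0.22 ± 0.24 on CXCL8. The controls differ from each other: CXCL8 averaged 44.6 ± 6.18 CPM with the control silencing RNA and 2.59 CPM with DMSO, and IRF1 averaged 47.8 ± 1.47 CPM with the control silencing RNA and 23.8 CPM with DMSO.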

How the data were processed

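RNA of 12 SK-N-SH libraries was compared in 4 groups of 3, of which the chaetocin and DMSO groups are described here. The authors deposited expected counts, TPM and FPKM per gene and library. Per the submitters' processing notes these involved Bowtie2, RSEM 1.3.1, DESeq2 1.4.5 and the build hg38. Their roles and the strand setting are not stated there. The deposited FPKM columns and the authors' averages and comparisons were not used, and the deposited TPM served for levels per length and for 1 alternative. The number of per-sample columns left unmapped was 0.

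The deposited expected counts were rounded, joined by gene ID, filtered with filterByExpr, scaled by TMM and fitted with edgeR 4.0.16 in R 4.3.3 (quasi-likelihood test, 1 mean per group, 12 libraries, 8 residual degrees of freedom), with Benjamini-Hochberg adjustment over 15051 genes. The standard error is the log2 change over the square root of F. The biological coefficient of variation was 8.87%. On simulated counts for the chaetocin comparison 98% of genes changed 2-fold and 100% of genes changed 4-fold were called, with 10 false calls, over 13964 genes. Several genes with under 30 counts in 1 group are given as a count ratio with an exact 95% interval. Some genes at 0 are given as a bound against 3 counts over the group. These intervals and bounds cover counting error only. Other genes with so few counts, among them SAA1, SAA2, AFP, CDH1 and KIT, are given as levels or log2 changes. No pair of libraries agreed within sampling noise.

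The members and lists were chosen with earlier results of these data known, and the interleukin list was edited after values were seen, to drop receptors. Per list, called members with the largest changes, a level of at least 5 CPM and no overlap were named, with an uncalled one; members shown elsewhere could be passed over. AFP, B2M, CD68, CDH1, CFB, HLA-B, HLA-C, MMP1, MMP3, VIM, the ends of the runs and the markers given as counts were named after their values were seen. Promoters of 300 bases came from RefSeq. Alternatives were other scalings, filters, tools (DESeq2 1.42.0, limma 3.58.1), thresholds, a replicate block and leaving out each library. Some results are not reported here.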

Additional observations from a re-analysis of the deposited data

How the results depend on the processing

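Of the 263 tested genes named above, the 241 that were called kept their call and direction under RLE or upper quartile scaling, library totals only, no low-count filter, DESeq2, limma-voom, the replicate block, the fit to the 6 libraries alone and each left-out library. With limma-trend on log2(TPM + 1) 1 lost its call, with a test against a 2-fold minimum 25 did, and 0 reversed. The replicate block called 6029 genes higher and 5687 lower. Same-numbered chaetocin and DMSO libraries deviated together with r of 0.11, −0.033 and 0.126, so the numbers were not taken to pair them. Leaving out 1 library gave 5917 to 6133 genes higher, 5583 to 5719 lower and 19 to 25 runs.

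The 2-fold minimum test called 2400 genes higher and 1894 lower, among them 97 and 94 pathway genes, 97 and 65 transcription factors and 83 lower secreted factors. With limma-trend 1998 genes were at least 2-fold higher and 1558 lower, 48 identity genes rose, and among genes at least 4-fold higher the motif shares were 18.7% (interferon-type), 17.8% (NF-kB), 18.7% (antioxidant-type) and 14.0% (AP-1). Runs numbered 33 with no filter, 8 with a mean of at least 1 CPM, 5 with limma-trend, 51 with at least 3 genes and 67 with a 2-fold limit. Among genes at least 2-fold higher the interferon-type share was 10.5% and the AP-1 share 8.82%, and among those at least 8-fold higher the interferon-type share was 16.4%.

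Settings chosen after seeing the data were the filter without the chaetocin libraries and the GC bands. The first left 111 secreted factors and 47 identity genes higher and 5 runs. Under 60% GC the shares in genes that rose were 18.3% (interferon-type), 9.13% (NF-kB) and 14.2% (AP-1), and in those that fell 11.1%, 8.64%, 9.88% (antioxidant-type) and 8.02% (AP-1). From 60% GC up they were 8.12%, 19.4%, 16.6% (antioxidant-type) and 7.92% (AP-1) in genes that rose, and 2.01% (interferon-type) and 2.23% (AP-1) in those that fell. The cause of these shifts was not tested, beyond the fewer genes that a stricter filter or limit leaves. Counts under 30 in a group, as in DMSO for many cytokines, limit the precision of their folds.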
